A study of Danio rerio with 2 samples.

Results

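The cells described here are 262 neurons from adult zebrafish brain. Their label names the neuropeptide gene galn, the calcium-binding protein gene pvalb7 and the transcription factor gene neurod6a. Not every cell had a UMI of each of these genes. These cells were picked by a fixed rule from 7322 cell barcodes in 2 single-cell RNA libraries, of which they made up 3.58%. A barcode was kept as a cell when it held at least 1000 unique molecular identifiers (UMIs, 1 for each captured transcript) and 500 genes, with no more than 15% of its UMIs from mitochondrial genes. A kept barcode became a member when at least 4 of the 7 genes galn, pvalb7, unc5a, nfatc1, cbln2a, rasa4 and neurod6a were detected with 8 or more UMIs in all, and when gad1b, gad2 and slc32a1, which mark GABAergic neurons, summed to under 3 UMIs. The rule read these cells' own counts, so differences between members and the other barcodes are descriptions without a test.

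The control library was made from brains of gpr85Gal4/+ fish and the knockout library from brains of gpr85GAL4/GAL4 fish, so Gal4 was knocked into the gpr85 locus in all fish, into 1 allele of the control fish and into 2 alleles of the knockout fish. Gal4 is a yeast transcription activator that is used to switch on reporter genes. The tissue was dissociated with papain, dead cells were removed with a viability dye, and eGFP-positive cells were sorted, 50000 per condition, before a droplet library was prepared from the 3′ ends of polyadenylated transcripts. The labels do not give the age, sex or number of fish, and each genotype had 1 library, so every value below compares 2 libraries and has no replicate check. Because the cells were sorted on the reporter, the share of members among barcodes need not be their share in the brain.

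Glutamatergic neurons load glutamate into synaptic vesicles with the transporters encoded by the slc17a6, slc17a7 and slc17a8 genes, known as vesicular glutamate transporters. Galanin, the peptide made from galn, is packed into dense core vesicles and acts on G-protein-coupled galanin receptors. Parvalbumins bind calcium in muscle and in neurons, Neurod6 is a basic helix-loop-helix factor found in differentiated excitatory neurons of the mouse, and Gpr85 is an orphan receptor of the brain. Of the remaining genes of the rule, unc5a encodes a netrin receptor, nfatc1 a transcription factor controlled by calcineurin, cbln2a a secreted cerebellin that bridges synapses, and rasa4 a Ras GTPase-activating protein.

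The members sat well inside the limits of the rule in most cases. In the control library 39 members had exactly 4 of the 7 genes, 26 had 5, 64 had 6 and 70 had all 7. In the knockout library 14 had exactly 4, 17 had 5, 15 had 6 and 17 had all 7. The summed UMIs of the 7 genes ranged from 8 to 198 in control members, with a median of 60, and from 14 to 139 in knockout members, with a median of 50, against a median of 0 in the other kept barcodes of each library. Most of these UMIs, 67.3% in control and 66.1% in knockout members, came from unc5a. Members with exactly 4 of the genes had galn at 365 and 349 CPM in the control and knockout libraries, where CPM is the gene's UMI count per 1e+06 UMIs of the summed barcodes. Barcodes just outside, with exactly 3 of the genes and at least 8 UMIs, numbered 32 and 20 and had galn at 94.3 and 287 CPM. Only 3 control members and no knockout member had 8 to 10 UMIs, and 9 control barcodes that met the first condition were kept out by their GABAergic genes.

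**Figure D1:**
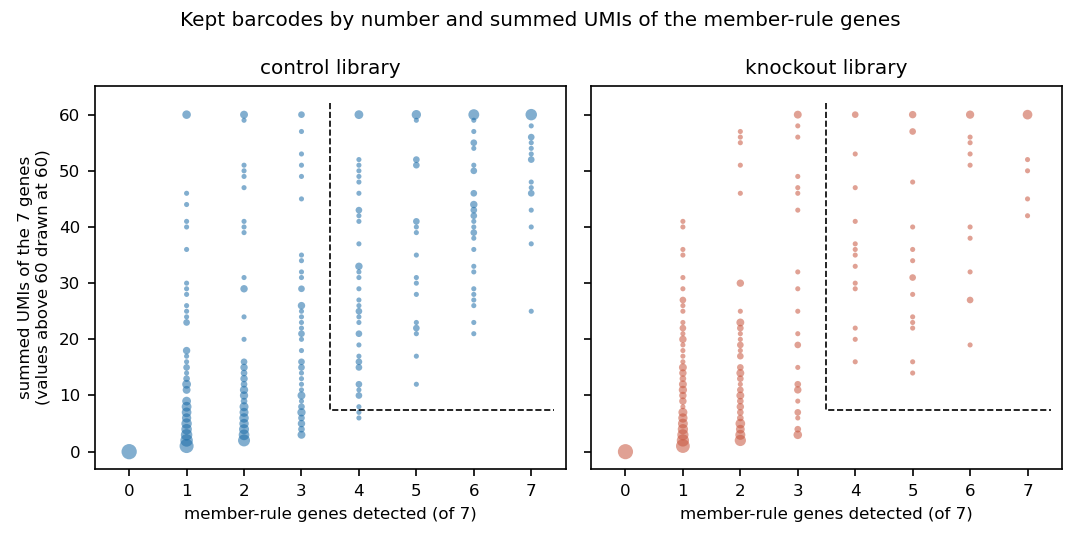
Kept barcodes of the control (left) and knockout (right) library by how many of the 7 member genes were detected (x axis) and by the summed UMIs of these genes (y axis, values above 60 drawn at 60). Point size grows with the logarithm of the number of barcodes at a position, and the dashed lines mark the limits of 4 genes and 8 UMIs. Members fill the upper right of both panels, with 70 control and 17 knockout members at all 7 genes, and most other barcodes lie at 0 or 1 gene.

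The libraries were of similar depth. The control library held 19368218 UMIs and 4091 kept barcodes, the knockout library 17646062 UMIs and 3231 kept barcodes. Members were deeper than the other kept barcodes in each library. The median control member had 7556 UMIs and 3050 genes and the median knockout member 7407 UMIs and 3009 genes, against medians of 2526.5 and 2832.5 UMIs in the other kept barcodes. Mitochondrial genes took a median of 1.01% and 1.16% of member UMIs. The libraries shared 8 kept barcode sequences, and 1 control member carried one of them. Barcodes with under 100 UMIs, which hold RNA from outside the cells, carried 24.4% of the control and 29.0% of the knockout UMIs.

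Members were less frequent among the kept barcodes of the knockout library. They numbered 199 of 4091 in the control, 4.86% (exact Clopper-Pearson 95% interval 4.23 to 5.57), and 63 of 3231 in the knockout library, 1.95% (1.502 to 2.49). The log2 ratio of these shares was -1.32 (Katz 95% interval -1.72 to -0.92), a 2.49-fold lower share in the knockout library. All intervals in this text cover counting error only and leave out differences between fish, sorts and library preparations. The share rests on genes that themselves differed between the libraries, nfatc1 and neurod6a by -0.39 and -0.41 on the log2 scale within members. With looser and stricter versions of the rule, doublet removal and other limits on depth the log2 ratio stayed between -1.13 and -1.46, apart from a limit on granule cell genes that left 10 control and 2 knockout members and is described with the processing.

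Each gene of the rule was well above the other barcodes in both libraries, as its use in the rule requires. The galn level was 696 CPM in control and 620 CPM in knockout members, against 8.75 and 9.21 CPM in the other barcodes. At least 1 galn UMI was found in 94.5% of control and 90.5% of knockout members, and in 1.03% and 0.61% of granule cell barcodes of the same libraries, whose median depth was 2646 and 2926 UMIs. The pvalb7 level was 661 and 576 CPM in control and knockout members, against 15.6 and 16.3 CPM in the other barcodes. The neurod6a level was 249 and 186 CPM, against 30.4 and 26.2 CPM. The netrin receptor gene unc5a stood at 5842 CPM in control and 5160 CPM in knockout members, against 376 and 266 CPM in the others, and was detected in 99.5% and 100% of members.

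The vesicular glutamate transporter genes were used to check the label of these cells as glutamatergic. Summed, the 5 genes of this list reached 625 CPM in control and 789 CPM in knockout members, against 694 and 731 CPM in the other barcodes. Among the latter, barcodes with at least 3 UMIs of gad1b, gad2 and slc32a1 reached 464 and 787 CPM. A high sum was therefore not particular to members. The detection rates below were taken in members only. At least 1 of slc17a6a, slc17a6b and slc17a7a was detected in 91.5% of control members (86.7 to 94.9) and 92.1% of knockout members (82.4 to 97.4). The gene behind most of these detections was slc17a7a, with 738 UMIs in control and 253 UMIs in knockout members, at levels of 484 and 535 CPM that lay close to the 486 and 553 CPM of the other barcodes. The label's own marker slc17a6a, which the rule did not use, had 116 and 59 UMIs in members, 76.1 and 125 CPM, against 13.7 and 7.07 CPM in the other barcodes and 2.44 and 3.20 CPM in granule cell barcodes. Its level was therefore 5.55-fold and 17.7-fold that of the other barcodes in the control and knockout libraries. The paralog slc17a6b was below the other barcodes, at 59.0 and 125 CPM in members against 192 and 168 CPM, and slc17a8 had no UMI in any member. Thinned to 1000 UMIs each, 45.7% of control and 42.9% of knockout members kept a UMI of at least 1 of these 3 genes. With all UMIs counted, barcodes with slc17a7a alone made up 42.2% of control (35.3 to 49.4) and 15.9% of knockout members (7.88 to 27.3). Barcodes with slc17a7a together with slc17a6a or slc17a6b made up 45.2% (38.2 to 52.4) and 63.5% (50.4 to 75.3). So with all UMIs the intervals overlapped for the combination and not for slc17a7a alone. After thinning, slc17a7a alone was found in 30.7% of control (24.3 to 37.6) and 19.0% of knockout members (10.2 to 30.9). The combination was then found in 6.03% (3.15 to 10.3) and 7.94% (2.63 to 17.6), so at that depth the intervals overlapped for both. Thinning took members from medians of 7556 and 7407 UMIs to 1000, so overlap there does not show equal shares.

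Markers of GABAergic neurons were near 0 in members. The 10 genes of the GABA and glycine list summed to 20.3 CPM in control and 6.35 CPM in knockout members, against 447 and 248 CPM in the other barcodes. This list holds the 3 genes that the rule limited. Of the genes outside that limit, slc6a1b, which encodes a GABA reuptake transporter, had 9 UMIs in control and 0 UMIs in knockout members.

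Members carried several markers of cerebellar granule cells at levels near those of the granule cell barcodes in the same libraries, and others below them. A granule population of 5007 barcodes was set by rule, with at least 3 of cbln12, gabra6b, fat2, vamp1, barhl1a and zic1 detected, under 3 GABAergic UMIs and no membership. The fat2 level, from a protocadherin-like gene typical of granule cells in mammals, was 1461 CPM in control and 1530 CPM in knockout members, against 1306 and 1504 CPM in the granule population. The GABA receptor subunit gene gabra6b stood at 265 CPM in members of each library, against 280 and 304 CPM, and neurod1 at 1975 and 2222 CPM, against 2152 and 2061 CPM. The zinc finger gene zic1 was at 959 and 914 CPM in members and 1380 and 1342 CPM in the other barcodes. By contrast barhl1a, a homeobox gene of granule cells, had 45 and 3 UMIs in members, 29.5 and 6.35 CPM, against 174 and 133 CPM in the other barcodes. Of 13 granule markers with enough UMIs, none was at least 2-fold higher and 5 were at least 2-fold lower than the other barcodes in both libraries. Summed, the list reached 5669 and 5949 CPM in members, against 7388 and 7343 CPM in the granule population. The list holds the 6 genes that set the granule population, so their levels there are tied to that choice. These 6 genes summed to 3098 and 3007 CPM in members, against 4232 and 4314 CPM in the granule population. Vesicular glutamate transporter genes were thus detected, but most of their UMIs came from slc17a7a, which is not a marker of the label, and not from the marker slc17a6a. Of the granule cell markers, which the label does not mention, zic4 stood at 114 and 157 CPM in members against 280 and 261 CPM in the granule population, and vamp1 at 269 and 171 CPM against 372 and 370 CPM. The 5 genes called lower were barhl1a, cbln12, cntn2, eomesa and pax6b.

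Members were compared with all other kept barcodes. Over 7284 genes with at least 50 UMIs in members, observed or expected at the others' level, 304 genes (4.17%) were at least 2-fold higher in members of both libraries and 662 genes (9.09%) at least 2-fold lower. Since all genes of these cells are tied to the choice of members, nothing further is read from these shares. The counts of called genes in the lists below stand beside these shares. A single gene called in a list is not read as a trait of the list. The 30 genes outside the rule with the largest fold, taken as the smaller of both libraries, were led by cav1 and irx1a. The caveolin gene cav1 had levels of 64.9 and 59.3 CPM in control and knockout members against 1.23 and 1.40 CPM in the others, which is 51.5-fold and 41.8-fold. The homeobox gene irx1a had 155 and 161 CPM against 2.86 and 4.19 CPM, 53.7-fold and 38.2-fold. Its neighbour irx2a was 30.9-fold and 34.95-fold higher at 91.8 and 108 CPM.

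Several abundant genes followed. The LIM-only transcriptional cofactor gene lmo4b stood at 1120 CPM in control and 1346 CPM in knockout members, against 51.2 and 42.8 CPM in the other barcodes. It was detected in 94.0% and 98.4% of members and in 7.095% and 6.74% of the granule population. The calcium sensor gene hpcal4 was at 1176 and 1232 CPM against 145 and 148 CPM, and the related ncaldb at 337 and 237 CPM, 15.8-fold and 16.0-fold above the others. The retinol dehydrogenase family gene dhrs3b was 25.3-fold and 32.5-fold higher, at 233 and 176 CPM. The cell adhesion gene cntn5 was at 534 and 402 CPM, 11.97-fold and 16.1-fold higher, the secreted guidance gene sema3ab at 182 and 119 CPM, and the melatonin receptor gene mtnr1aa at 173 and 193 CPM, 9.75-fold and 13.5-fold higher. The bicarbonate cotransporter gene slc4a4a was at 389 and 432 CPM, 18.3-fold and 9.50-fold higher.

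The keratin gene krt5 had levels of 64.9 CPM in control and 144 CPM in knockout members. Its level in the other barcodes was 0.572 CPM (control) and 11.3 CPM (knockout), so its fold over them was 106 in one library and 12.8 in the other. Over the 30 genes the smaller of both folds ran from 8.09 for hpcal4 to 41.8 for cav1.

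**Figure D2:**
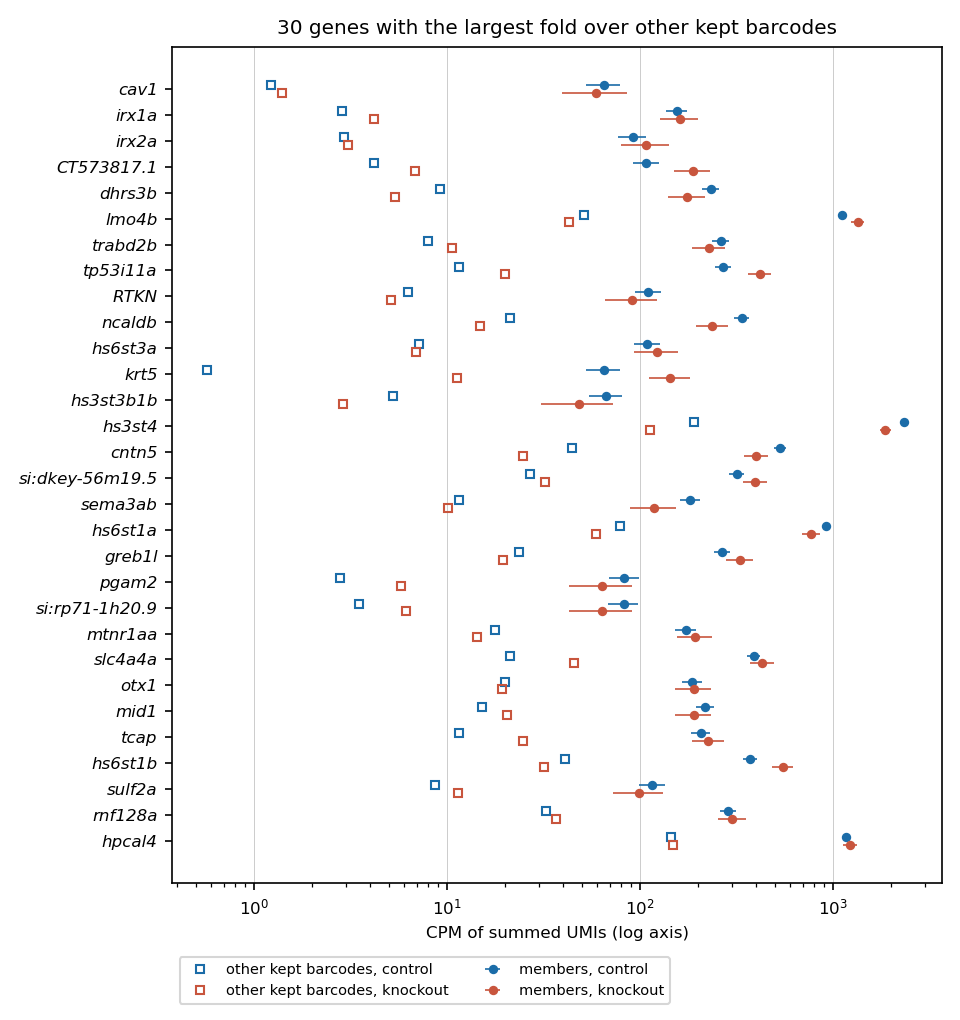
Level in CPM of summed UMIs (log axis) of the 30 genes with the largest fold of members over the other kept barcodes. Filled circles with exact Poisson 95% bars are members and open squares the other kept barcodes, in blue for the control and red for the knockout library. Members lie to the right of the others for each gene in both libraries, from hs3st4 at 2352 and 1879 CPM to cav1 at 64.9 and 59.3 CPM.

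Enzymes that sulfate heparan sulfate, the sugar chain of cell surface and matrix proteoglycans, made up 5 of those 30 genes, with the sulfatase gene sulf2a as a further member of the family. The family lists in this and the next paragraphs were drawn up after these genes had been seen, so they describe and do not test. The 3-O-sulfotransferase gene hs3st4 was at 2352 CPM in control and 1879 CPM in knockout members, against 190 and 114 CPM in the others, 12.4-fold and 16.6-fold. The median control member had 13 hs3st4 UMIs and the median knockout member 9. The 6-O-sulfotransferase gene hs6st1a was at 923 and 772 CPM, 11.7-fold and 13.1-fold higher. Its paralog hs6st1b stood at 374 and 550 CPM, 9.18-fold and 17.3-fold higher, and hs6st3a at 109 and 123 CPM, 15.1-fold and 17.9-fold higher. The genes hs3st3b1b and hs3st3l, also of the 3-O-sulfotransferase group, were at 66.9 and 48.7 CPM and at 31.5 and 21.2 CPM in members.

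In the whole family of sulfotransferases and sulfatases, 9 of 11 genes with enough UMIs were at least 2-fold higher in both libraries and 2 were at least 2-fold lower. The lower genes were ndst1b, an N-deacetylase and N-sulfotransferase, at 135 and 121 CPM in members against 425 and 521 CPM, and sulf2b, a sulfatase that removes 6-O-sulfate, at 22.3 and 16.9 CPM against 58.8 and 112 CPM. Its paralog sulf2a was higher instead, at 116 and 99.5 CPM against 8.67 and 11.4 CPM. Summed, the family reached 4895 and 4432 CPM in members and 1269 and 1214 CPM in the others. Among the others, barcodes with at least 3 UMIs of gad1b, gad2 and slc32a1, called GABAergic here, reached 2361 and 2412 CPM. The median log2 fold of the 11 genes was 3.54 (control) and 3.41 (knockout), beside -0.14 and -0.11 over all 7284 genes. Genes that build the chain did not share this pattern. Of 7 synthesis genes 1 was at least 2-fold higher, the xylosyltransferase gene xylt1 at 48.5 and 76.2 CPM, and of 4 core protein genes none was higher and 3 were lower, among them gpc3 at 67.5 and 21.2 CPM against 465 and 396 CPM.

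Some genes of the Wnt pathway that are known as its transcriptional targets and negative regulators were high in members, and others were low. The transcription factor gene lef1 was at 469 CPM in control and 510 CPM in knockout members, against 54.5 and 95.4 CPM in the others, 8.61-fold and 5.35-fold. The ubiquitin ligase gene znrf3, whose product removes Wnt receptors, was at 305 and 425 CPM, 7.72-fold and 9.91-fold higher. The scaffold gene axin2 was at 49.8 and 78.3 CPM, 7.82-fold and 10.2-fold higher, and nkd1, whose product antagonises Dishevelled, was at 34.8 and 55.03 CPM, 3.68-fold and 3.34-fold higher. These 4 were the genes called higher among 9 feedback genes and Tcf or Lef factors with enough UMIs, and 3 were at least 2-fold lower. Summed, this list reached 1024 and 1194 CPM in members and 469 and 499 CPM in the others. The GABAergic barcodes among the others reached 941 and 690 CPM, so a high sum was not particular to members. Of 2 Wnt ligand genes with enough UMIs, wnt7aa was higher, at 59.0 and 50.8 CPM against 4.09 and 6.61 CPM. No frizzled receptor gene was at least 2-fold higher or lower, with 1 of 14 measured deeply enough.

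Homeobox and helix-loop-helix factors of the Iroquois, Otx and Ebf families were higher in members, with few exceptions. Of 5 Iroquois genes with enough UMIs, 4 were at least 2-fold higher in both libraries, and the remaining gene, irx4b, had 45 and 5 UMIs. Beside irx1a and irx2a these were irx3a, at 85.9 and 125 CPM, and irx5a, at 99.7 and 125 CPM. In the RefSeq annotation of assembly GRCz12tu, irx2a and irx1a are separated by 1 protein-coding gene, tars2, and irx5a and irx3a are next to each other, so the 4 genes fall into 2 pairs of neighbours. All 3 Otx genes with enough UMIs were higher. The levels of otx1, a factor of the forebrain, midbrain and cerebellum in mouse, were 188 and 190 CPM against 19.95 and 19.3 CPM. For otx2a they were 24.3 and 42.3 CPM, 24.1-fold and 28.2-fold above the others, and for otx2b 111 and 184 CPM, 2.58-fold and 3.64-fold. Both measured Ebf genes were higher, ebf1b at 581 and 576 CPM and ebf3a at 139 and 152 CPM. Of 4 LIM-only genes lmo4b was higher and 3 were lower. One of these, lmo3, had no UMI in any member, which is at least 24.6-fold and at least 20.2-fold below its level in the others against a floor of 3 counts per library.

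**Figure D3:**
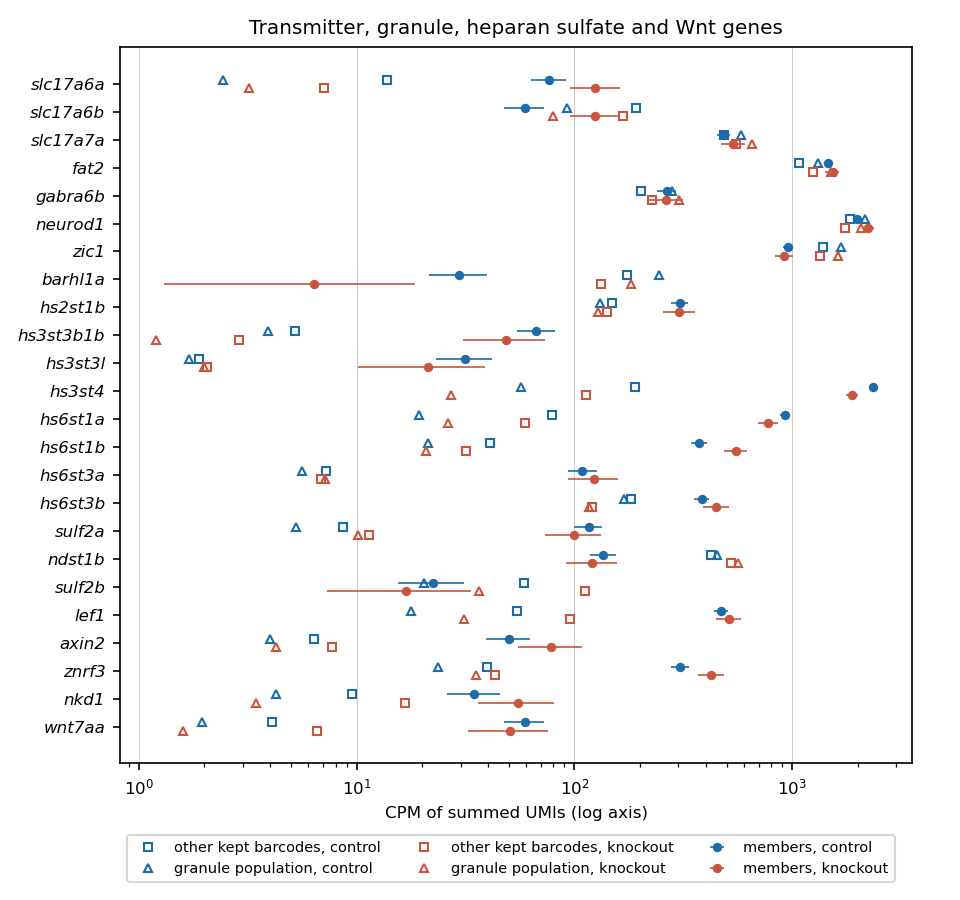
Level in CPM of summed UMIs (log axis) of transporter genes, granule cell markers, heparan sulfate enzymes and Wnt pathway genes. Filled circles with exact Poisson 95% bars are members, open squares the other kept barcodes and open triangles the granule population, in blue for the control and red for the knockout library. The granule markers fat2, gabra6b and neurod1 lie at nearby levels in members and the granule population, though for fat2 and neurod1 not always within the bars. In contrast hs3st4, hs6st1a and lef1 stand far apart, and barhl1a is lower in members.

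Among regional transcription factors, 10 of 39 genes with enough UMIs were at least 2-fold higher and 16 at least 2-fold lower, and the higher ones were the 4 Iroquois, 3 Otx and 2 Ebf genes above and pou4f2, a POU homeobox gene, at 62.3 and 84.7 CPM against 11.4 and 26.6 CPM. The lower ones included the T-box gene eomesa, with 5 and 0 UMIs in members, and tcf7l2, a Tcf factor, with 8 and 0 UMIs. The zinc finger genes zic2a, at 1096 and 1295 CPM in members, and zic5, at 427 and 514 CPM, were within 2-fold of the other barcodes, at 1030 and 987 CPM and at 397 and 371 CPM. Of 11 NeuroD and related helix-loop-helix genes, 3 were higher, tcf12, neurod6b and neurod6a, the last a gene of the member rule. The tcf12 level, from a broadly used partner of these factors, was 967 and 940 CPM, 2.18-fold and 2.01-fold higher.

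Apart from galn, members carried few neuropeptide transcripts. Of 8 precursor genes with enough UMIs, 1 was higher, the rule gene galn itself, and 5 were lower, adcyap1b, cckb, kiss1, tac1 and uts1. The gene adcyap1b, which encodes the peptide PACAP, had 11 and 0 UMIs in members against 166 and 164 CPM in the others, and tac1, the precursor of substance P, had 1 and 0 UMIs. The growth factor gene bdnf was at 132 and 144 CPM in control and knockout members, against 89.7 and 89.5 CPM. The habenular peptide gene kiss1 had 2 and 1 UMIs in members, and uts1, which encodes urotensin 1, had 2 and 0. Of 14 genes of dense core vesicles none was at least 2-fold higher and 4 were lower, cadpsa, chga, chgb and scg3. The granin gene scg3 was at 36.7 and 27.5 CPM against 141 and 132 CPM, and the peptide-processing carboxypeptidase gene cpe was at 1045 and 1147 CPM against 759 and 780 CPM. The galanin receptor genes were hardly detected in these cells. Control members had 3 UMIs of galr2b and knockout members 1 UMI of galr1b, and no other UMI of the 4 receptor genes was found.

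Calcium and Ras signalling genes were mixed. The counts in this paragraph include the rule genes pvalb7, nfatc1, rasa4, unc5a and cbln2a, whose higher levels followed from the choice of members. Of 13 calcium buffer and sensor genes with enough UMIs, 4 were at least 2-fold higher, pvalb7, hpcal4, ncaldb and necab2, and 5 were lower, among them vsnl1a at 207 and 216 CPM against 1425 and 1904 CPM. Of 12 NFAT and calcineurin genes 2 were higher, nfatc1 and nfatc3a, with nfatc3a at 482 and 394 CPM against 193 and 192 CPM. Of 8 Ras GTPase-activating protein genes 2 were higher, rasa4 and rasal2, with rasal2 at 289 and 290 CPM, 5.15-fold and 7.16-fold above the others. Of 8 netrin pathway genes 2 were higher, unc5a and unc5b, and 3 were lower, and unc5b was at 102 and 108 CPM. Of 12 cerebellins and their partners 3 were higher and 4 were lower. The higher ones were cbln2a, the delta glutamate receptor gene grid1a at 1462 and 1321 CPM, 3.33-fold and 3.52-fold above the others, and cbln2b at 207 and 296 CPM against 74.7 and 44.3 CPM. The granule cerebellin gene cbln12 was lower, at 115 and 121 CPM against 257 and 245 CPM, as was the presynaptic partner gene nrxn3a, at 972.5 and 732 CPM against 2806 and 2534 CPM.

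Receptors for glutamate were lower in members than in the other barcodes for 15 of 25 genes and higher for 1, grid1a. The presynaptic receptor gene grm8a was at 111 and 42.3 CPM against 684 and 724 CPM. The AMPA receptor gene gria4a was at 310 and 288 CPM against 669 and 589 CPM, and the NMDA receptor gene grin1a had 7 and 3 UMIs in members, while gria2a was at 295 and 372 CPM against 188 and 200.5 CPM.

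Of 14 GABA and glycine receptor genes 1 was higher, the GABA-B subunit gene gabbr1a, and 2 were lower. Its level was 1169 and 921 CPM, against 163 and 193 CPM in the others, and it was detected in 100% of control and 95.2% of knockout members. Of 34 synaptic vesicle genes 6 were higher, ppfia2, rab3b, snap25b, stxbp1b, sypb and syt1a, and 2 were lower, cplx2 and sv2bb. The complexin gene cplx2 was at 50.5 and 36.0 CPM against 500.2 and 395 CPM. The list summed to 35718 and 35557 CPM in members against 23496 and 22946 CPM. The SNARE gene snap25b was at 5651 and 5566 CPM and the calcium sensor gene syt1a at 3718 and 4193 CPM, against 2337 and 2273 CPM and 1402 and 1225 CPM. Of 25 sodium, calcium and HCN channel genes 1 was higher, the pacemaker channel gene hcn2b at 89.8 and 86.8 CPM against 42.0 and 29.7 CPM, and 4 were lower. Over all 7284 genes 4.17% were called higher and 9.09% lower. Of 29 potassium channel genes 3 were higher, kcna2a, kcnc2 and kcnk9, and 11 lower, and the leak channel gene kcnk9 was at 128 and 91.0 CPM, 7.14-fold and 8.87-fold above the others.

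Immediate early genes, which neurons switch on after activity or after handling of the tissue, were lower in members. Of 27 such genes 13 were at least 2-fold lower in both libraries and 1 was higher, nr4a3 at 75.4 and 114 CPM. Summed, they reached 2628 and 3069 CPM in members against 5748 and 7985 CPM in the others. The transcription factor gene fosab, a Fos paralog, was at 31.5 and 25.4 CPM against 387 and 572 CPM, and its partner gene jun at 68.9 and 33.9 CPM against 412 and 320 CPM. The growth-response gene egr4 was at 91.8 and 290 CPM against 992 and 1805 CPM. Of 24 heat shock genes none was higher and 5 were lower, among them hsp70l with 22 and 2 UMIs in members. No mitochondrially encoded gene of 11, no nuclear oxidative phosphorylation gene of 67 and no ribosomal protein gene of 70 differed by 2-fold in both libraries.

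Markers of other cell types were lower in members than in the other barcodes for some lists and not for others. The 18 microglia markers summed to 15.1 and 10.6 CPM in control and knockout members against 430 and 804 CPM in the others, and 11 and 15 of the 18 were at 0. Vascular and blood markers summed to 7.21 and 10.6 CPM against 119 and 104 CPM, with 8 and 10 of 13 at 0, and cycling and progenitor genes to 34.8 and 27.5 CPM against 62.8 and 132 CPM, with 9 and 10 of 13 at 0. Aminergic and cholinergic genes summed to 16.4 and 25.4 CPM against 52.1 and 51.4 CPM. Radial glia markers summed to 632 and 671 CPM, of which slc4a4a supplied 389 and 432 CPM, against 336 and 1076 CPM for the list in the others. Oligodendrocyte markers summed to 586 and 434 CPM against 683 and 519 CPM, of which mag supplied 406 and 292 CPM, against 326 and 291 CPM of mag in the others. Habenula markers summed to 41.3 and 46.6 CPM against 308 and 436 CPM. Of 6 Purkinje cell markers none was higher and 4 were lower, and the list summed to 398 and 271 CPM against 1664 and 1108 CPM. Of 5 eurydendroid and crest cell markers 2 were higher and 1 was lower. The higher ones were slc17a6a and pvalb7, the latter a gene of the member rule, so its call followed from that choice. The eurydendroid and crest cell list summed to 1239 and 1122 CPM in control and knockout members against 1978 and 1125 CPM in the others. Of 11 immature neuron markers 1 was higher, the growth cone gene gap43 at 452 and 423 CPM, 3.97-fold and 8.08-fold above the others, and 4 were lower. This list summed to 6852 and 5835 CPM against 4552 and 3458 CPM. Free RNA, estimated from 42 markers of non-neuronal cells with all their UMIs counted as free, came to 2.17% of control and 2.34% of knockout member UMIs. The part of these markers in the results was not tested.

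The 10 genes that were lowest in members against their level in the other barcodes included microglial and habenular genes. After lmo3 came si:dkeyp-72h1.1 with 1 and 0 UMIs in control and knockout members, and cd74a, an antigen presentation gene, with 5 and 2 UMIs against 183 and 289 CPM in the others. The orphan receptor gene gpr139 had 2 and 0 UMIs against 75.6 and 281 CPM, and the lipoprotein gene apoc1 had 7 and 0 UMIs against 114 and 254 CPM. The others in this group, ccl34b.1, uts1, kiss1, cebpb and si:ch211-5k11.8, had between 0 and 7 UMIs in members of either library.

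The members were not uniform. Clustering of the members alone, without gpr85, the added sequences and mitochondrial genes, gave 5 subgroups of 82, 47, 46, 44 and 43 barcodes. Of the 15 components used, the first held 4.97% and the second 1.90% of the variance. Each subgroup had barcodes of both libraries. In the order of size they took 33.7%, 18.1%, 16.6%, 14.1% and 17.6% of the control members and 23.8%, 17.5%, 20.6%, 25.4% and 12.7% of the knockout members. The genes that separate the subgroups were found from the same cells and are given as descriptions.

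Subgroup 1 was led by rasd1, gadd45ga and klf4, which are known as inducible genes. The klf4 level there was 197 CPM against 39.6 CPM in the remaining members, that of slc4a4a was 750 against 245 CPM, and galn stood at 950 CPM. Subgroup 2 was led by the engrailed genes en2a, at 101 against 28.1 CPM, and en2b, at 163 against 46.0 CPM, which are known for patterning the midbrain and hindbrain boundary. It also had lmo4b at 1799 CPM and pvalb7 at 984 CPM. Most barcodes of subgroup 2 had no engrailed UMI of a given gene, with en2a detected in 23.4% and en2b in 40.4%. In subgroup 5 these rates were 23.3% and 32.6%. Subgroup 3 was the shallowest, with a median of 4089 UMIs, and was led by the metabotropic receptor gene grm2b, tox2 and nrg3b, with unc5a at 9472 CPM. Subgroup 4 was led by the adhesion genes sdk1a and tenm3, the latter at 1551 against 458 CPM, and by axin2 at 126 against 42.7 CPM. It had galn at 380 CPM and pvalb7 at 305 CPM, the latter the lowest of the 5 subgroups.

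Subgroup 5 stood apart. It was led by barhl1a, at 99.0 CPM against 0.657 CPM in the remaining members, and by epha4a, pax6a and pax6b, and it had vsnl1a at 744 CPM, grm8a at 343 CPM and egr4 at 501 CPM. Its median depth was 11212 UMIs, against 7225 UMIs for the other 219 members. Its median Scrublet score, which rates how much a barcode resembles a simulated doublet, was 0.228 against 0.0322, and 24 of its 43 barcodes but 3 of the other 219 were among those a doublet removal would take out. Whether these barcodes hold more than 1 cell was not tested. Control barcodes of subgroup 5 with 2870, 3033, 3424 and 5293 UMIs, below its median depth, lay at 48.8 to 55.2 on the first component. The next highest member lay at 10.5. Without this subgroup 1 barhl1a UMI was left among members, and the log2 ratio of the member shares was -1.24. The fold calls against the other barcodes came to 323 higher and 609 lower, with the minimum of UMIs per gene applied anew to the remaining members. The transporter gene slc17a7a ranged only from 443 to 551 CPM over the 5 subgroups, slc17a6a from 56.9 to 126 CPM and gpr85 from 93.5 to 145 CPM. Detection of slc17a6a ranged from 31.7% of subgroup 1 to 51.1% of subgroup 2. That of neurod6a ranged from 39.1% of subgroup 3 to 89.4% of subgroup 2, and that of pvalb7 from 54.5% of subgroup 4 to 96.3% of subgroup 1.

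**Figure D4:**
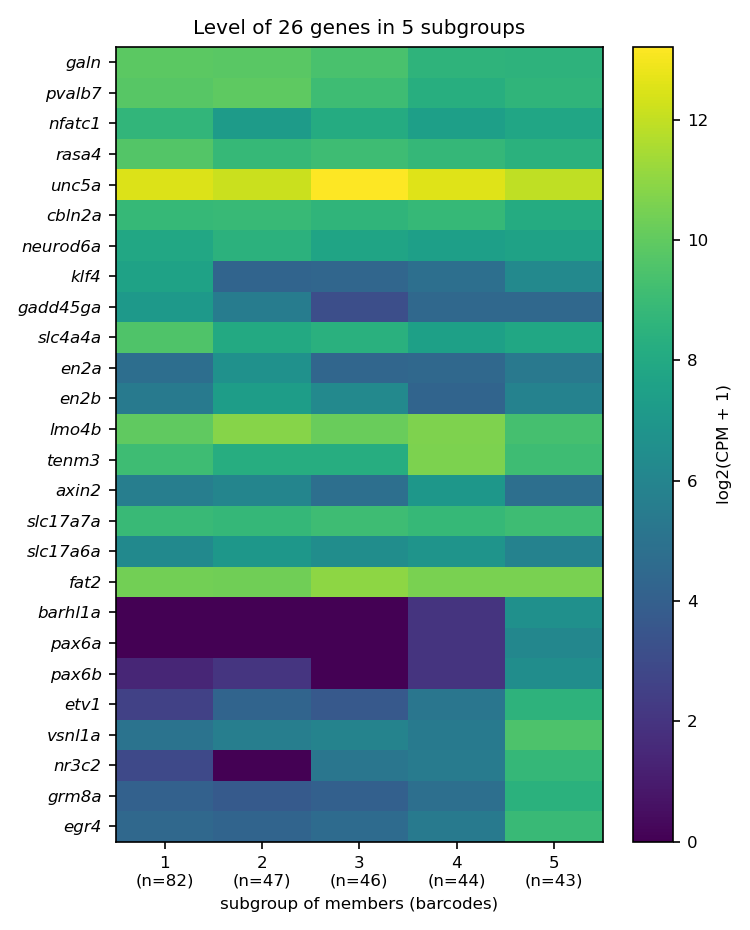
Level of 26 genes, as log2 of CPM plus 1 (colour scale), in the 5 subgroups of members (columns, with the number of barcodes). Darker cells are lower. The first 4 columns lack barhl1a and pax6a or nearly so, the fifth column holds both along with vsnl1a, grm8a and egr4, and slc17a7a and fat2 are at like levels in all 5.

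Within members the libraries differed by at least 2-fold for a small share of genes. Of 6228 genes with at least 50 UMIs in members, 69 (1.11%) were at least 2-fold higher and 159 (2.55%) at least 2-fold lower in knockout than in control members. The counting interval of the ratio lay above 0 for 445 genes (7.15%) and below 0 for 506 genes (8.12%). The middle 95% of log2 ratios lay between -1.02 and 0.81 in members and between -0.67 and 0.52 for the same genes in the other barcodes, whose sums are much deeper. The genes named next were chosen by size of the ratio, with the ratio in the other barcodes given beside it.

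The gene farthest above in the knockout library was robo1, which encodes an axon guidance receptor for Slit. It had 20 UMIs in control and 56 UMIs in knockout members, levels of 13.1 and 119 CPM, and a log2 ratio of 3.15 (2.42 to 3.99). It was detected in 5.53% of control and 38.1% of knockout members, and after thinning to 1000 UMIs in 1.51% and 17.5%. In the other barcodes robo1 stood at 121 and 98.8 CPM, a log2 ratio of -0.29. A single knockout barcode held 32.1% of the knockout UMIs, and without subgroup 5 the ratio was 3.65. With the looser member rule of 3 genes and 6 UMIs the robo1 ratio was 0.19 (-0.23 to 0.59). The plectin gene plecb, a cytoskeletal linker, had 59 and 77 UMIs, 38.7 and 163 CPM, and a log2 ratio of 2.07 (1.57 to 2.59), against -0.15 in the others.

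Other genes higher in the knockout library were bcan, which encodes the matrix proteoglycan brevican, at 2.84 (2.07 to 3.70) and 1.86 in the others, and the annexin gene anxa13, at 2.15 (1.30 to 3.04) and 0.11. The list went on with pih1d1 at 1.94, asap3 at 1.86 and si:ch211-213a13.1 at 1.84. The antizyme gene oaz2b had a ratio of 1.83 (1.58 to 2.08) in members and 2.18 in the others, so it was higher in both. Summed over all members, both slc17a6 paralogs had higher levels in the knockout library. For slc17a6b the log2 ratio was 1.09 (0.58 to 1.57), with detection in 23.1% of control and 55.6% of knockout members, and the ratio in the others was -0.20. For slc17a6a it was 0.72 (0.24 to 1.18) in members and -0.95 in the others, and slc17a7a had 0.15 (-0.07 to 0.35) and 0.19. After thinning, slc17a6b was detected in 6.53% of control members (3.52 to 10.9) and 11.1% of knockout members (4.59 to 21.6), so at that depth the intervals overlapped. In subgroup 1, the largest, both paralogs were lower in the knockout library, slc17a6a at 83.5 and 50.6 CPM and slc17a6b at 87.6 and 50.6 CPM. In each of the remaining subgroups both were higher in the knockout library. These subgroup levels have no interval and rest on few UMIs. Subgroup 1 held 47 UMIs of slc17a6a and 49 of slc17a6b over both libraries, with 15 knockout members. No direction within a subgroup was tested.

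The genes farthest below in the knockout library were detected in few or no knockout members. The gene si:ch211-281l24.3 had 133 UMIs in control and 0 in knockout members, at least 13.7-fold lower against a floor of 3 counts over the knockout members, and its ratio in the others was -4.57. For mtbl, with 147 and 3 UMIs, the log2 ratio was -3.71 (-6.22 to -2.35), against -0.95 in the others. The semaphorin co-receptor gene nrp2b had 93 and 2 UMIs, a ratio of -3.53, against -0.56 in the others. The potassium channel interacting protein gene kcnip3b had 160 and 6 UMIs, -2.94 (-4.51 to -1.89), against -0.40, and the inward rectifier channel gene kcnj5 had 95 and 5 UMIs, -2.43 (-4.21 to -1.28), against -0.40. The calcineurin regulator gene rcan2 had 148 and 9 UMIs, -2.28 (-3.51 to -1.39), against -0.51. The ratio was -3.52 for si:ch211-216b21.2, which had a single UMI in knockout members, and -2.27 for the nucleolar gene gnl2, which had 3.

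**Figure D5:**
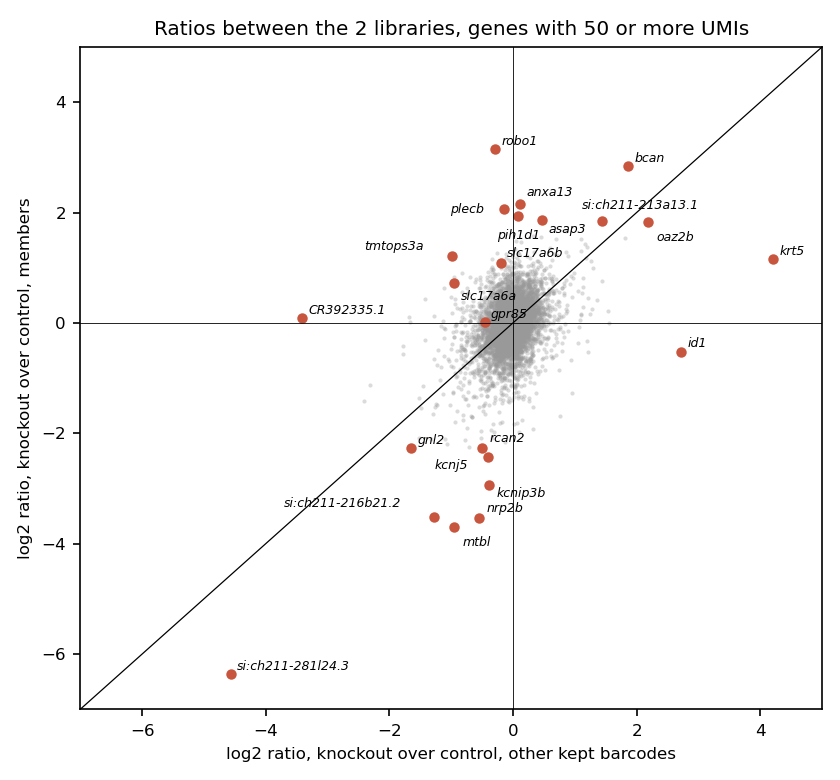
Log2 ratio of knockout over control CPM in members (y axis) against the same ratio in the other kept barcodes (x axis) for the genes with at least 50 UMIs in members, with 0.5 counts added to each sum. Grey points are genes, red points the named genes, and the diagonal marks equal ratios. The genes robo1 at 3.15 and nrp2b at -3.53 lie far from 0 on the y axis and near it on the x axis, oaz2b lies near the diagonal, and the position of si:ch211-281l24.3 depends on the added counts since it had 0 knockout UMIs.

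Some genes had other ratios in members than in the other barcodes. The gene CR392335.1 had 159 and 52 UMIs in members and its ratio was 0.09 (-0.40 to 0.54), against -3.41 in the others. The Bmp-responsive gene id1 had a ratio of -0.52 (-1.55 to 0.31) in members and 2.72 in the others, and krt5 had 1.15 (0.68 to 1.61) and 4.205. Radial glia markers, a list that holds id1, summed to 336 and 1076 CPM in the others but to 210 and 145 CPM in the granule population. The part of the mix of cells in the ratios of the others was not tested. The opsin gene tmtops3a had 66 and 47 UMIs, 43.3 and 99.5 CPM, and a ratio of 1.205 (0.63 to 1.76) in members, against -0.99 in the others. None of these differences between members and the others could be tested with 1 library per genotype.

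Gene groups were also compared between the libraries within members. The median log2 ratio was -0.02 over 34 synaptic vesicle genes, -0.16 over 12 glutamate receptor genes, -0.07 over 67 oxidative phosphorylation genes, 0.06 over 70 ribosomal protein genes, 0.15 over 11 mitochondrially encoded genes and 0.00 over 19 heat shock genes. Over all 6228 genes it was -0.004. For NFAT and calcineurin genes it was -0.29, with 11 of 12 genes below 0, and -0.03 in the others. For Wnt feedback genes and Tcf or Lef factors it was 0.47, with 5 of 6 above 0, and 0.30 in the others. The 3 Otx genes were all above 0, with a median of 0.73 against 0.23, and the regional transcription factors had a median of 0.16, with 18 of 26 above 0, against -0.06. The median of the 10 heparan sulfate sulfotransferase and sulfatase genes was -0.18, with hs3st4 at -0.32 (-0.43 to -0.22) and hs6st1b at 0.56 (0.34 to 0.77). The calcium-binding gene necab2 was lower, at -1.27 (-1.64 to -0.93) in members and -0.98 in the others, and the GABA receptor subunit gene gabrd was higher, at 1.30 (0.96 to 1.63) and 1.11. The Wnt antagonist gene frzb was at -1.53 in members and 0.33 in the others, with 88 and 9 UMIs.

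For the 20 immediate early genes compared, the median log2 ratio was 0.16 in members and 0.19 in the others, with 13 genes above 0. The egr4 and egr1 values rested on subgroup 5. The egr4 ratio was 1.66 (1.31 to 2.01) over all members and 0.09 without subgroup 5, and 1 knockout barcode held 55.5% of the egr4 UMIs of that library. The egr1 ratio was 0.90 over all members and 0.08 without subgroup 5. The npas4a ratio was 1.12 (0.76 to 1.47) and 0.80. In the same way the ratio of grm8a moved from -1.37 to -0.14, that of gpc3 from -1.61 to -0.60 and that of kcnd3, a potassium channel gene, from -1.02 to -0.42 when subgroup 5 was left out.

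For the gene that carries the knock-in, no difference between members of the libraries was resolved, and the interval of its ratio was wide. The gpr85 sum was 171 UMIs in control members, 112 CPM (exact Poisson 95% interval 96.0 to 130), and 53 UMIs in knockout members, 112 CPM (84.0 to 147), a log2 ratio of 0.01 (-0.47 to 0.45). In the other kept barcodes it was 149 and 108 CPM, a ratio of -0.46 (-0.57 to -0.35), so the interval of the members overlaps that of the others. It was detected in 55.3% of control and 55.6% of knockout members, and without subgroup 5 its ratio was -0.14. The labels do not say which part of gpr85 the knock-in replaces, and 3′ counts outside a replaced part would not check the genotype. The related receptor gene gpr27 had 57 and 19 UMIs and a ratio of 0.13 (-0.73 to 0.88), and gpr173 had 1 and 0 UMIs.

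The added reporter sequence H2B-mGL had a higher level in knockout members. Its level was 12094 CPM in control and 24292 CPM in knockout members, a log2 ratio of 1.01 (0.97 to 1.04), against 1.08 in the others, with medians of 46 and 182 UMIs per member. The range over control members was 0 to 600 UMIs and over knockout members 1 to 634 UMIs, so single barcodes of the libraries overlapped. Beside it, mCherry-NTR had 17 UMIs in control members, from 2 barcodes, and 1 UMI in knockout members, and mTagBFP2 had none. Which transgene these sequences come from is not given in the labels, which describe the sort as one for eGFP.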

How the data were processed

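The 2 libraries of sorted adult zebrafish brain cells were 1 per genotype and were grouped by the genotype in the labels. The authors deposited counts, whole numbers of UMIs for each gene in each barcode, with no barcode left out, per the file headers. The submitters' processing notes name Cell Ranger 7.1.0, Seurat and GRCz11, and the deposited count tables list 25435 features, of which 25432 carry Ensembl IDs and 3 are added sequences. Filters or cell types of the authors were not used here.

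Members were found by the rule given in the text. Counts were summed over members or other barcodes per library and given as CPM. With 1 library per genotype no test was made. Before a ratio of knockout to control was taken on the log2 scale, 0.5 counts went onto both sums. The 95% intervals are exact Poisson for sums, exact Clopper-Pearson for shares, exact conditional binomial for a ratio of sums and Katz for a ratio of shares. UMIs were treated as independent, so the intervals hold no spread between cells and are too small for a gene whose UMIs sit in few cells. Counts of 3′ ends are not scaled by gene length. Genes were called at 2-fold, with at least 50 UMIs. A gene at 0 was compared with a floor of 3 counts. Members were clustered by Leiden partition in python-igraph 0.11.9, resolution 0.6, on 15 components of 1000 variable genes. Doublets were not removed in the main values. Scrublet (scanpy 1.11.5) marked 0 control and 2 knockout barcodes by its own threshold, so as an alternative the top-scoring 0.8% per 1000 barcodes were taken out, which removed 134 and 84 barcodes, of which 22 and 5 were members. The estimate of free RNA compares markers of non-neuronal cells in cells with their level in barcodes under 100 UMIs. The scripts' intervals and folds were run on simulated sums drawn with counting error only. That check covers the arithmetic and cannot show how the intervals do where UMIs sit in few cells.

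The members and the gene lists were chosen with earlier results of these data known. Named genes were the rule genes and slc17a6a, the 30 highest and 10 lowest against the other barcodes (at least 100 UMIs observed or expected, and for the highest a UMI in at least 20% of members), the 8 highest and 8 lowest ratios between libraries whose interval leaves out 0, the 5 highest and 5 lowest differences of that ratio from the other barcodes, and up to 4 of the most abundant genes of each list. The heparan sulfate, Wnt, frizzled, Iroquois, LIM-only, Ebf and Otx families and the values without subgroup 5 were chosen after seeing the data, as were some single genes outside the naming rule, such as adcyap1b, fosab and hcn2b.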

Additional observations from a re-analysis of the deposited data

Results flagged for a closer look

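The 2 genes flagged here had ratios between the libraries in opposite directions in members and in the other kept barcodes. Their counting intervals left out 0 in both. They were not the only genes with opposite directions, since slc17a6a and slc17a6b, whose values are given above, were also higher in members and lower in the others. For robo1 the log2 ratio of knockout over control was 3.15 in members and -0.29 in the other barcodes, and with the looser rule of 3 genes and 6 UMIs it was 0.19 (-0.23 to 0.59) in members. For tmtops3a it was 1.205 in members and -0.99 in the other barcodes, and 1.12 (0.58 to 1.65) in members under the looser rule. The difference was not tested, since each genotype had 1 library.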

How the results depend on the processing

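Of 592 values recomputed under an alternative, 526 stayed within the interval of the reported value or, for counts of genes, near the reported count, 60 moved further and 6 reversed. Among the 526, values near 0 changed sign for gpr85, gpr27 and the medians of the oxidative phosphorylation, ribosomal, heat shock and synaptic vesicle genes. The interval came to hold 0 for slc17a6a with 5 genes and 12 UMIs (0.47, -0.12 to 1.01). It did so for oaz2b and rcan2 under the granule gene limit and for the glutamate receptor median under 5 alternatives. After thinning it did so for genes including slc17a6a, slc17a6b, asap3, tmtops3a, mtbl, nrp2b, kcnj5 and si:ch211-216b21.2. Among values that moved further, thinning also brought 0 into the interval for genes including si:ch211-281l24.3, kcnip3b, rcan2, anxa13 and si:ch211-213a13.1. The share of members stayed lower in the knockout library under each alternative. A limit of under 5 UMIs from granule cell genes left 10 control and 2 knockout members, since members express fat2. Under it the log2 ratio of shares was -2.02 (-4.21 to 0.17), so its interval held 0. The fold calls against the others came there to 16 higher and 4 lower, and those between libraries to 4 higher and 7 lower. The ratio under this limit was -1.23 for gpr85 and 1.97 for H2B-mGL. Only there the sign of the ratio reversed for robo1 (-2.15), si:ch211-281l24.3 (0.35), mtbl (0.35), nrp2b (0.061), gnl2 (0.35) and krt5 (-0.39). These signs rest on few UMIs and on the 0.5 counts added to each sum. For gpr85, robo1, si:ch211-281l24.3 and mtbl the knockout sum was 0, so the interval had no lower limit. Its upper limit was 2.53, 1.16, 7.22 and 7.22. For nrp2b the interval was -5.95 to 2.77. Each of these intervals held 0, so no change of direction was resolved. Thinned to 1000 UMIs per barcode, 149 genes were higher and 109 lower than in the others, and 9 were higher and 17 lower in the knockout library. The minimum of 50 UMIs was applied to the thinned counts, so fewer genes were compared than in the main values. Wherever an alternative changed the counts or the minimum, the number of genes compared changed too, so these counts of genes are not over the same genes. With a minimum of 20 UMIs per gene 1067 genes were lower than in the others, and 308 were higher and 504 lower in the knockout library, and with 100 UMIs these numbers were 422, 22 and 53. A rule of 3 genes and 6 UMIs gave 142 genes higher in the knockout library, 0.19 for robo1, 0.93 for H2B-mGL and a median of 0.68 for immediate early genes. A rule of 5 genes and 12 UMIs gave a median of -0.17 for oxidative phosphorylation genes, and doublet removal gave 0.94 for H2B-mGL. Without subgroup 5, an alternative added after seeing the data, 65 genes were higher and 114 lower in the knockout library. These counts cover only genes that still had 50 UMIs in the remaining members. Over the same 6228 genes as in all members, 130 were higher and 192 lower without subgroup 5. Free RNA was estimated from non-neuronal markers and not from granule markers as planned, since members express the latter. The cause of the other moves was not tested. No paired analysis was possible because each genotype had 1 library. With 63 knockout members, genes under 50 UMIs were not compared.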
